A study of Mus musculus with 32 samples.

Results

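The type II classical cadherins are a family of cell adhesion genes, and 10 of them were followed here among the 48576 gene identifiers of the mouse expression files. The 10 members were Cdh6, Cdh8, Cdh11, Cdh7, Cdh9, Cdh10, Cdh12, Cdh20, Cdh22 and Cdh24, each matched by its Ensembl identifier, and all 10 were listed in the files. Cdh6, Cdh8 and Cdh11 are the genes that the study knocked out, and the other 7 were not targeted. The data address which type II cadherins remained in the mutant brain, and whether any of the 7 had a higher mRNA level there.

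Forebrain (Fb) and midbrain (Mb) were dissected from B6C3F1 mouse embryos at embryonic day 9.5, and 32 RNA-seq libraries were made. The groups were wild type (WT, 6 Fb and 6 Mb libraries), TKO_Ex (title TKO6.8.11, the Cdh6, Cdh8 and Cdh11 triple knockout, exencephalic by the study's group name, 4 Fb and 4 Mb), DKO_Ex (title DKO8.11, the Cdh8 and Cdh11 double knockout with exencephaly, 3 Fb and 3 Mb) and DKO_CD (title DKO6.8, labelled as a Cdh6 and Cdh8 double knockout with a cranial defect, 3 Fb and 3 Mb). Exencephaly is an open cranial neural tube, and the study used cranial defect for embryos with a closed tube and an elongated Mb. The study's methods give both DKO groups as Cdh8 and Cdh11 mutants, which differs from the label of DKO_CD. All knockout alleles were germline CRISPR deletions passed on by 1 founder. WT embryos came from WT matings and mutant embryos from matings of triple heterozygotes, so that genotype and litter cannot be told apart in any comparison with WT. In 12 files, all from the DKO groups, the column heading names the other DKO group than the record that lists the file. Here the heading was followed, and by the record the DKO_Ex and DKO_CD values below change places.

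Classical cadherins are transmembrane proteins whose outermost extracellular domains bind one another across cell contacts, while their cytoplasmic tails bind catenins that link to actin. Type I members include E-cadherin of epithelia and N-cadherin of the neural tube. Type II members are found in overlapping regional patterns in the brain, the neural crest and the mesenchyme. A type II cadherin inserts a pair of tryptophan side chains near its mature N terminus into the partner molecule, and members of the same binding subgroup can pair with each other.

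The mRNA level was measured as fragments per kilobase of exon scaled to the mapped total of the library (FPKM), which is per length and so can be compared between genes. The lowest values fell on steps of 1 fragment, which gave an estimated depth of 2030000 to 3380000 fragments per library. In the median library 1 fragment was worth 0.0462 FPKM for Cdh6, the member with the longest transcript, and 0.137 FPKM for Cdh9, the one with the shortest. The dissections carried their regional labels: between WT Mb and WT Fb, 8 of 8 forebrain markers were lower and 6 of 8 midbrain and isthmus markers were higher in the Mb (limma, adjusted p under 0.05). Of the markers of other cell types, 6 of the 10 mesenchyme and neural crest genes tested and 5 of 5 surface ectoderm genes tested were lower in the Mb and 1 mesenchyme gene, Col1a1, was higher. Among neural progenitor markers 3 of 6 were higher in the Mb, and 0 of 6 endothelial and 0 of 6 red cell markers passed in either direction. The summed level of the 8 midbrain markers was 43.5 FPKM in WT Mb replicate 5 and 118 to 238 FPKM in the other WT Mb libraries. In bulk tissue, fewer cells that express a gene and less RNA per cell cannot be told apart.

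The 3 targeted genes are shown first by the part of each that was edited. The guides lay in the exon that holds the start codon, and the deletions shift the reading frame. The coding bases of that exon are printed because the deletions were designed within the exon and because these bases hold the adhesive tryptophans. In GRCm38 the gene Cdh6 (ENSMUSG00000039385) spans chromosome 15, 13028701 to 13173675, minus strand, and has its start codon in exon 2 of 12 of transcript Cdh6-201. Cdh8 (ENSMUSG00000036510) spans chromosome 8, 99024471 to 99416471, minus strand, with the start codon in exon 2 of 12 in Cdh8-203. Cdh11 (ENSMUSG00000031673) is on the same strand of chromosome 8, at 102632095 to 102785642, with the start codon in exon 3 of 13 in Cdh11-201. In GENCODE M21 the coding bases of these exons span chr15:13091650-13091877, chr8:99400726-99400977 and chr8:102679612-102679839. Capitals mark the start codon and a pair of tryptophan codons, which were found by translating the exon and searching for tryptophan, any residue, tryptophan after a lysine, an arginine and any residue.
Cdh6: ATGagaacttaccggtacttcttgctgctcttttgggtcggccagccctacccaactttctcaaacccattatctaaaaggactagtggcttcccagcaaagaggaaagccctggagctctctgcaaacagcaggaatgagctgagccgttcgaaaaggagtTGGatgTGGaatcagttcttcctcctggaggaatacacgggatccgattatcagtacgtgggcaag
Cdh8: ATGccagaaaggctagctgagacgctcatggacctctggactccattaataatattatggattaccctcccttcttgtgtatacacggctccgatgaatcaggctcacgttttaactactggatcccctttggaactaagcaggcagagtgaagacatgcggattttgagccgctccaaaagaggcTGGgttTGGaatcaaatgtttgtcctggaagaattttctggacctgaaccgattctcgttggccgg
Cdh11: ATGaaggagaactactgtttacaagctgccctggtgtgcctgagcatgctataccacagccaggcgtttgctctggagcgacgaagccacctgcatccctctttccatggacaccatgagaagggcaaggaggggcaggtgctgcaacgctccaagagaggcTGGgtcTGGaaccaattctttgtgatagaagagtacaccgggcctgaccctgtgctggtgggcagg
The first tryptophan codon began at base 163 of the coding sequence in Cdh6 and Cdh11 and at base 187 in Cdh8. The whole exon is 361 of 8167 bases of the Cdh6 transcript, 452 of 4594 bases for Cdh8 and 400 of 5647 bases for Cdh11. A gene-level FPKM is therefore made mostly of fragments from outside the edited exon, and an mRNA level near WT does not show that the protein was made.

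The coding sequences also place the other members. Over the whole coding sequence, Cdh8 and Cdh11 shared 67.7% of aligned bases, and Cdh6 shared 71.2% with Cdh10 and 69.5% with Cdh9. Cdh9 and Cdh10 lie on chromosome 15 with Cdh6 and Cdh12. The pair with the lowest identity was Cdh12 and Cdh24, which is on chromosome 14, at 55.6%.

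In WT the family was led by Cdh11, a cadherin of mesenchyme and neural crest, in both tissues. Its level was 20.9, 25.3, 19.5, 24.2, 23.0 and 22.0 FPKM in WT Fb replicates 1 to 6, and 21.2, 22.9, 21.5, 17.9, 28.7 and 19.1 FPKM in WT Mb replicates 1 to 6. Every WT library of either tissue had more Cdh11 than any other member, and the tissues overlapped. Cdh11 made up 59.6% ± 3.50 (SD, n = 6) of the summed FPKM of the 10 members in the Fb and 55.2% ± 4.44 in the Mb (SD, n = 6). Among the genes that were not targeted, Cdh24 was the highest. It was at 5.97 ± 1.13 FPKM in WT Fb (SD, n = 6) and 5.78 ± 1.26 FPKM in WT Mb (SD, n = 6), with single libraries between 3.81 and 7.84 FPKM.

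In the Fb the order of means after these was Cdh6, Cdh20, Cdh8, Cdh7, Cdh10 and Cdh22. Cdh6 was at 3.06 ± 0.782 FPKM and Cdh20 at 2.93 ± 0.465 FPKM (SD, n = 6), and Cdh6 was the higher in only 3 of 6 libraries, so that their order was not set apart by the spread. Cdh8 followed at 1.46 ± 0.439 FPKM (SD, n = 6), below Cdh20 in every library and with no overlap. Cdh7 was at 0.866 ± 0.363, Cdh10 at 0.491 ± 0.256 and Cdh22 at 0.417 ± 0.165 FPKM (SD, n = 6), and each overlapped the next. Cdh7 and Cdh20 are known from subsets of neural tube and neural crest cells.

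In the Mb, Cdh8 came after Cdh24, at 4.93 ± 2.98 FPKM (SD, n = 6), and the libraries of these genes overlapped. Cdh6 was at 2.47 ± 0.955, Cdh22 at 1.88 ± 0.511, Cdh20 at 1.46 ± 0.501, Cdh7 at 0.969 ± 0.572 and Cdh10 at 0.337 ± 0.279 FPKM (SD, n = 6). Each of these neighbours overlapped in range, from Cdh24 down to Cdh12.

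The remaining members were at the limit of detection. Cdh12 was above 0 in 10 of all 32 libraries, at no more than 0.164 FPKM, which is about 3 fragments. Cdh9 was above 0 in 2 of 32 libraries, 1 DKO_CD Fb and 1 DKO_Ex Fb, at 0.124 FPKM or about 1 fragment in each. In the 12 WT libraries Cdh9 was listed at 0, and a count of 0 allows up to 3 fragments.

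**Figure D1:**
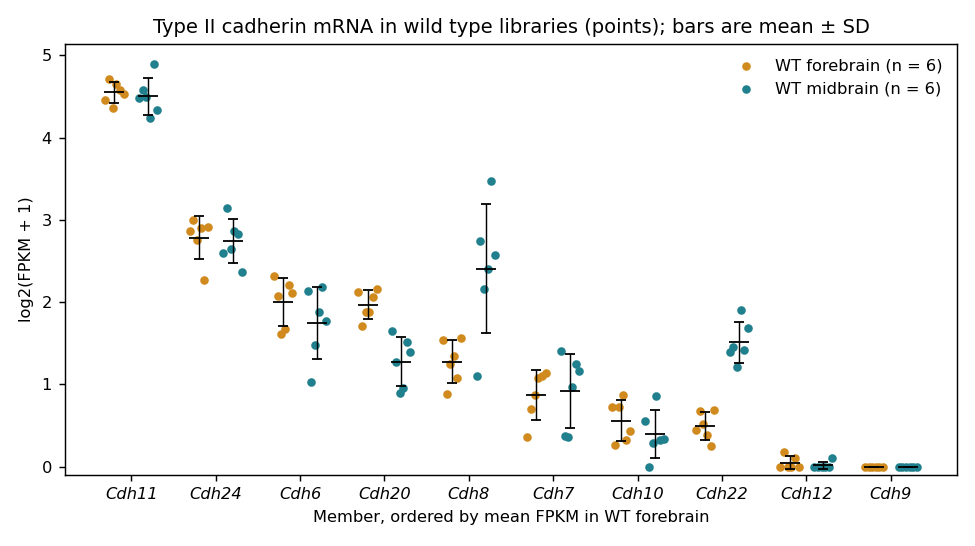
Level of each type II cadherin in the 6 WT Fb and 6 WT Mb libraries, as log2(FPKM + 1) on the vertical axis, with members ordered along the horizontal axis by their mean FPKM in the Fb. Points are libraries and bars give the mean ± SD; Cdh11 stands above every other member, Cdh8 and Cdh22 have higher means in the Mb, Cdh20 has a higher mean in the Fb, and Cdh9 is at 0.

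The tissue comparison in WT found 3 members that differed between the Mb and the Fb, among 6 that passed the minimum of 1 FPKM, against 8.26% of all 13344 genes tested (limma on log2(FPKM + 1), adjusted p under 0.05). Cdh22 and Cdh8 were higher in the Mb and Cdh20 was higher in the Fb. The libraries of the tissues did not overlap for Cdh22 and Cdh20, and 5.59% of genes tested had no overlap.

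Cdh22, a type II cadherin with a brain-enriched pattern in later life, was at 1.62, 1.74, 1.32, 2.74, 1.66 and 2.21 FPKM in WT Mb replicates 1 to 6. In WT Fb replicates 1 to 6 it was at 0.366, 0.597, 0.431, 0.307, 0.190 and 0.608 FPKM. All 6 Mb libraries were above all 6 Fb libraries. The difference between Mb and Fb was 1.01 on the log2(FPKM + 1) scale (SE 0.17, 95% CI 0.65 to 1.38, adjusted p = 0.00154 by limma), a scale that understates the change of a gene this low. With a pseudocount of 0.1 in place of 1 the difference was 1.97.

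Cdh20 was at 3.36, 2.28, 2.67, 2.67, 3.17 and 3.46 FPKM in WT Fb replicates 1 to 6 and at 2.12, 1.404, 0.864, 0.932, 1.85 and 1.62 FPKM in WT Mb replicates 1 to 6. The lowest Fb library lay above the highest Mb library. The Mb was lower by a log2 difference of -0.69 (SE 0.16, 95% CI -1.04 to -0.34, adjusted p = 0.0176 by limma).

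Cdh8 was at 1.14, 5.69, 3.45, 4.27, 10.1 and 4.93 FPKM in WT Mb replicates 1 to 6 and at 1.90, 0.840, 1.36, 1.55, 1.12 and 1.96 FPKM in WT Fb replicates 1 to 6. WT Mb replicate 1 lay within the Fb range and replicate 5 lay far above the rest. The log2 difference was 1.13 (SE 0.31, 95% CI 0.46 to 1.80, adjusted p = 0.0393 by limma). The call was lost when any library other than WT Mb replicate 1 was left out (adjusted p = 0.0538 to 0.0862), and without WT Mb replicate 1 the log2 difference was 1.39 (adjusted p = 0.00171). Without WT Mb replicates 1 and 5 together, a choice made after seeing the data, it was 1.19 (adjusted p = 0.00209). WT Mb replicate 5 is the library with the low midbrain marker level given above, and WT Mb replicate 1 had a marker level of 205 FPKM, within the range of the others. The part of the place of the dissection in the Cdh8 level was not tested.

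Cdh6, Cdh11 and Cdh24 did not pass the test between the tissues, with log2 differences of -0.25 (95% CI -0.71 to 0.20), -0.05 (95% CI -0.28 to 0.19) and -0.04 (95% CI -0.37 to 0.29). Cdh7 and Cdh10 were under the FPKM minimum and their libraries overlapped between the tissues.

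For each member at 1 FPKM or more over the WT libraries, the genes with the most similar level over the 12 WT libraries were taken from 8193 protein-coding genes. These libraries share 2 tissues, so that a gene with a tissue difference matches any other with the same difference. Cdh8 was most like Otx2, a homeobox gene of the Fb and Mb (Pearson r = 0.93 of log2(FPKM + 1), n = 12 libraries), then Trp53inp2 (r = 0.92) and Ina, an intermediate filament gene of young neurons (r = 0.91). Otx2 was at 63.3 FPKM in WT Mb replicate 1 and 171 FPKM in replicate 5, the lowest and the highest of the WT Mb, as for Cdh8. Cdh22 was most like Dtx4 (r = 0.98), Gpm6b (r = 0.97) and Hsdl1 (r = 0.96). Cdh20 was most like Fam162a (r = 0.92), Hsd17b10 (r = 0.90) and Gpc3 (r = 0.89). For Cdh24 the closest were 1700025G04Rik (r = 0.92), Cybc1 (r = 0.91) and Rad54l (r = 0.91). Cdh11 and Cdh6, which did not pass the test between the tissues, had closest matches of r = 0.84 (Pfkm) and r = 0.83 (Rps3a1).

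In the mutants the targeted genes were read in every library. Cdh6 was at 0.388, 0.353, 3.10 and 0.345 FPKM in TKO_Ex Mb replicates 1 to 4, and WT Mb libraries ran from 1.04 to 3.55 FPKM with a median of 2.54 FPKM. The 3 low libraries hold about 6.7 fragments each. The Fb of TKO_Ex replicates 1 to 4 had Cdh6 levels of 1.84, 0.766, 3.74 and 0.572 FPKM, against 2.04 to 3.997 FPKM in WT. The libraries labelled TKO_Ex replicate 3 were within the WT range in both tissues, and the other 3 lay below every WT library in both. The log2 difference from WT was -0.90 in the Mb (SE 0.36, 95% CI -1.69 to -0.11, adjusted p = 0.547 by limma) and -0.69 in the Fb (SE 0.30, 95% CI -1.36 to -0.03, adjusted p = 0.549). Without the libraries labelled replicate 3, left out after their Cdh6 level was seen, the difference was -1.30 in the Mb and -1.01 in the Fb, which is given as a description with no test.

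Cdh6 had a lower mean in DKO_CD than in DKO_Ex in both tissues, with no test passed. It was at 1.76, 2.11 and 1.29 FPKM in DKO_CD Mb and 3.43, 1.72 and 2.78 FPKM in DKO_CD Fb, the group labelled as a Cdh6 knockout. The DKO_CD libraries overlapped WT in both tissues. Their log2 difference from WT was -0.31 in the Mb (95% CI -0.92 to 0.30) and -0.16 in the Fb (95% CI -0.66 to 0.34). The DKO_Ex levels were 3.12, 2.47 and 1.86 FPKM in the Mb and 3.62, 3.72 and 4.34 FPKM in the Fb. All 6 DKO_CD libraries were above the low TKO_Ex libraries of the same tissue except that 1 DKO_CD Fb library, at 1.72 FPKM, was below TKO_Ex Fb replicate 1 at 1.84 FPKM. DKO_Ex and DKO_CD overlapped in the Mb, where their log2 difference was 0.35 (95% CI -0.25 to 0.95, adjusted p = 0.853 by limma), and did not overlap in the Fb, where all 3 DKO_CD libraries were below all 3 DKO_Ex libraries and it was 0.45 (95% CI -0.12 to 1.03, adjusted p = 0.901). Of all genes, 11.1% had no overlap between the DKO groups in the Fb and 12.2% in the Mb, where Cdh8 was the member without overlap, higher in DKO_Ex by 0.38 (95% CI -0.22 to 0.98, adjusted p = 0.844). Between the DKO groups 0 of 6 members tested passed in the Mb and 0 of 4 in the Fb, against 0.045% and 0.00753% of all genes, with 864 and 736 genes at an unadjusted p under 0.05.

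Cdh8 was low in all mutant Mb groups relative to the WT mean. It was at 1.19, 0.851, 1.59 and 2.32 FPKM in TKO_Ex Mb replicates 1 to 4, at 1.63, 2.49 and 1.67 FPKM in DKO_Ex Mb, and at 1.47, 1.005 and 1.25 FPKM in DKO_CD Mb. All 10 mutant Mb libraries were below 5 of the 6 WT Mb libraries, and WT Mb replicate 1 at 1.14 FPKM lay among them. The log2 differences were -1.12 in TKO_Ex (SE 0.38, 95% CI -1.96 to -0.29), -0.87 in DKO_Ex (SE 0.41, 95% CI -1.78 to 0.05) and -1.25 in DKO_CD (SE 0.41, 95% CI -2.17 to -0.33), with adjusted p = 0.464, 0.904 and 0.595 by limma. The 3 comparisons share the WT libraries. Without WT Mb replicate 5 the TKO_Ex difference was -0.91 (adjusted p = 0.605 by limma), and without WT Mb replicate 1 it was -1.39 (adjusted p = 0.0771 by limma). Otx2, the gene most like Cdh8 in WT, was at 59.8 to 112 FPKM in TKO_Ex Mb, 68.1 to 158 FPKM in DKO_Ex Mb and 20.2 to 163 FPKM in DKO_CD Mb, each overlapping the WT Mb at 63.3 to 171 FPKM. The 8 midbrain and isthmus markers summed to 162 to 214 FPKM in TKO_Ex Mb, 177 to 215 FPKM in DKO_Ex Mb and 116 to 220 FPKM in DKO_CD Mb, all inside the WT Mb range of 43.5 to 238 FPKM. Their median log2 differences were 0.46, 0.61 and 0.04, with 0 of 8 called in each, and their part in the Cdh8 level was not tested.

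In the Fb, where Cdh8 is lower to begin with, it was at 0.423, 0.626 and 0.702 FPKM in DKO_Ex, below all 6 WT Fb libraries. The log2 difference was -0.62 (SE 0.22, 95% CI -1.12 to -0.12, adjusted p = 0.610 by limma). It was at 0.449, 1.44 and 0.988 FPKM in DKO_CD Fb and at 1.07, 0.911, 1.33 and 3.15 FPKM in TKO_Ex Fb, both overlapping WT, with log2 differences of -0.34 (95% CI -0.88 to 0.21) and 0.04 (95% CI -0.51 to 0.59). The highest TKO_Ex Fb value was in replicate 4, which also had the highest summed surface ectoderm marker level of the Fb libraries, at 229 FPKM against 59.0 to 95.1 FPKM in WT Fb. Midbrain and isthmus markers in that library summed to 53.7 FPKM, against 19.4 to 35.6 FPKM in WT Fb. Its forebrain markers summed to 129 FPKM, against 183 to 246 FPKM in WT Fb. The part of these markers in the Cdh8 level was not tested.

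Cdh11 was at 16.4, 14.5, 16.2 and 16.6 FPKM in TKO_Ex Mb replicates 1 to 4, below all 6 WT Mb libraries. The log2 difference was -0.42 (SE 0.13, 95% CI -0.70 to -0.15, adjusted p = 0.356 by limma). A two-sided exact permutation test gave the smallest p open to 4 against 6 libraries (p = 0.00952, adjusted p = 0.357 over 60 tests). The libraries did not overlap for 1.74% of all genes in this comparison. The summed mesenchyme and neural crest markers, 11 of 12 matched, were at 88.1 to 117 FPKM in TKO_Ex Mb and 82.8 to 136 FPKM in WT Mb, which overlap. Their part in the Cdh11 level was not tested. In DKO_Ex Mb, Cdh11 was at 18.4, 17.6 and 18.7 FPKM, overlapping WT, with a log2 difference of -0.24 (95% CI -0.55 to 0.07). In DKO_CD Mb it was at 22.4, 27.2 and 16.6 FPKM, with a log2 difference of 0.00 (95% CI -0.39 to 0.39).

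In the Fb, Cdh11 was at 17.9, 17.1 and 18.7 FPKM in DKO_Ex, below all 6 WT Fb libraries. The log2 difference was -0.31 (SE 0.10, 95% CI -0.54 to -0.08, adjusted p = 0.535 by limma). Cdh8 and Cdh11 were thus the 2 of 5 members tested whose DKO_Ex Fb libraries all lay below WT, beside 3.7% of all genes with no overlap. The mesenchyme and neural crest markers were also lower there, at 139 to 160 FPKM in DKO_Ex Fb against 180 to 219 FPKM in WT Fb, with no overlap, and their part in the Cdh11 level was not tested. TKO_Ex Fb was at 20.6, 21.4, 21.1 and 19.8 FPKM, within the WT range, with a log2 difference of -0.11 (95% CI -0.30 to 0.09). DKO_CD Fb was at 25.3, 12.7 and 22.6 FPKM. Its replicate 2, the lowest library for Cdh11 of all 32, had mesenchyme markers at 99.8 FPKM and surface ectoderm markers at 210 FPKM, against 195 and 218 FPKM and 95.1 and 77.3 FPKM in replicates 1 and 3.

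**Figure D2:**
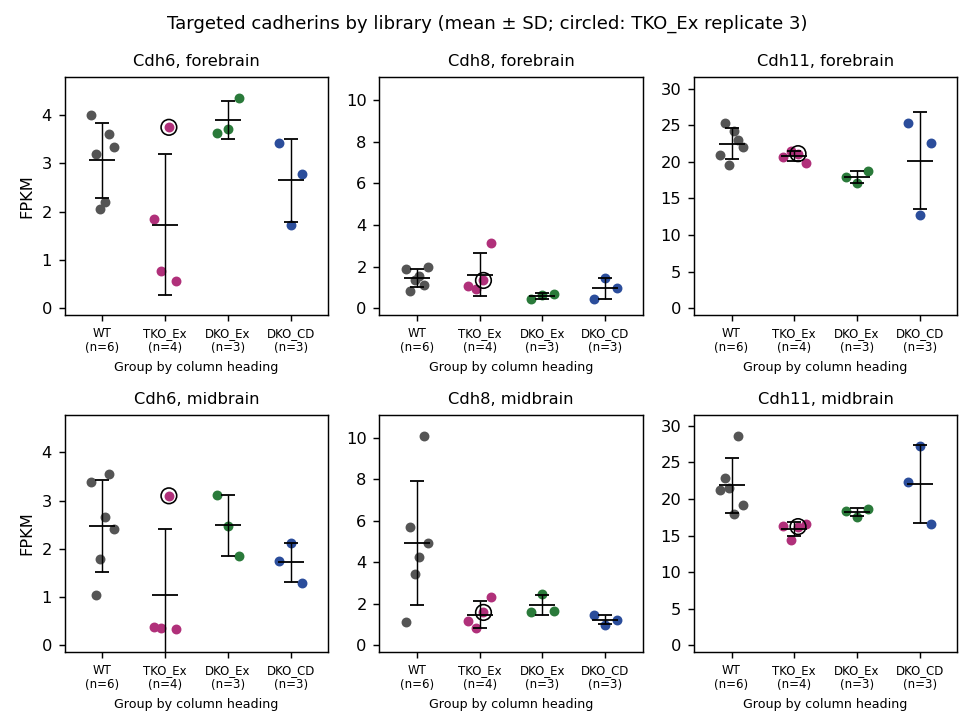
FPKM of the targeted genes Cdh6, Cdh8 and Cdh11 (columns) in each Fb library (upper row) and Mb library (lower row) by group, with 1 point per library, bars for mean ± SD, and circles around the libraries labelled TKO_Ex replicate 3. Cdh6 is low in 3 of 4 TKO_Ex Mb libraries, at 0.345 to 0.388 FPKM, and at 3.10 FPKM in the circled one; no library of any group is at 0 for these genes.

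The same tests were read for all members together. Against WT, limma called 0 members in TKO_Ex Mb (6 tested, with 0.0898% of all genes called), TKO_Ex Fb (of 5, 0.0603%), the DKO_Ex Mb (of 6, 0.0903%), the DKO_Ex Fb (of 5, 0.0759%), the DKO_CD Mb (of 6, 0.0375%) or the DKO_CD Fb (of 5, 0.0378%). At these shares, 5 to 12 genes were called of 13178 to 13361 tested, and 726 to 1148 had an unadjusted p under 0.05. The exact permutation test, which covers all 10 members, gave 0 of 60 tests past an adjusted p of 0.05 and 5 with an unadjusted p under 0.05. With 4 against 6 libraries its smallest p is 0.00952 and with 3 against 6 it is 0.0238, so that a lone difference could not pass the adjustment.

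Among the 7 members that were not targeted, Cdh24 carried most of the remaining level. Its Mb mean was 6.61 FPKM in TKO_Ex, 7.60 FPKM in DKO_Ex and 7.47 FPKM in DKO_CD, against 5.78 FPKM in WT. A rise in the Mb was neither shown nor excluded by the intervals below, which include 0. In the Mb it was at 6.52, 9.17, 4.96 and 5.79 FPKM in TKO_Ex, at 6.47, 10.4 and 5.95 FPKM in DKO_Ex and at 8.57, 5.93 and 7.91 FPKM in DKO_CD, against 5.03, 7.84, 5.28, 6.26, 6.08 and 4.17 FPKM in WT. Every mutant group overlapped WT. The log2 differences were 0.16 (95% CI -0.25 to 0.57), 0.33 (95% CI -0.13 to 0.79) and 0.33 (95% CI -0.09 to 0.74). In the Fb they were -0.06 (95% CI -0.39 to 0.27) in TKO_Ex, 0.13 (95% CI -0.31 to 0.57) in DKO_Ex and 0.21 (95% CI -0.20 to 0.62) in DKO_CD.

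Cdh20 had the highest upper bound among the untargeted members tested with the FPKM minimum. In TKO_Ex Mb replicates 1 to 4 it was at 2.44, 2.89, 2.08 and 1.63 FPKM, and in WT Mb between 0.864 and 2.12 FPKM, so that 2 of the 4 TKO_Ex libraries were above the WT range and 2 were inside it. The log2 difference was 0.41 (SE 0.21, 95% CI -0.05 to 0.88, adjusted p = 0.637 by limma; two-sided exact permutation test, p = 0.0571). In DKO_Ex Mb it was at 1.49, 1.31 and 1.01 FPKM and in DKO_CD Mb at 1.104, 0.715 and 2.34 FPKM, with log2 differences of -0.10 (95% CI -0.62 to 0.42) and -0.08 (95% CI -0.70 to 0.54). In the Fb, Cdh20 was between 1.081 and 3.73 FPKM in TKO_Ex, 2.18 and 3.21 FPKM in DKO_Ex and 1.27 and 2.94 FPKM in DKO_CD, and all 3 intervals held 0.

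Cdh22 in the Mb was at 1.73, 1.34, 2.41 and 1.78 FPKM in TKO_Ex, 1.89, 2.77 and 1.87 FPKM in DKO_Ex and 1.71, 1.23 and 2.67 FPKM in DKO_CD. These values overlapped the WT range of 1.32 to 2.74 FPKM. The log2 differences were -0.03 (95% CI -0.45 to 0.40), 0.15 (95% CI -0.32 to 0.61) and -0.02 (95% CI -0.54 to 0.50). The higher level in the Mb than in the Fb was present in every mutant group too: the highest Fb library of any mutant group was at 0.959 FPKM and the lowest Mb library at 1.23 FPKM.

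Cdh7 and Cdh10 were too low for the limma fit with the FPKM minimum and were read by the exact test. Cdh7 lay between 0.398 and 2.14 FPKM in the mutant libraries and overlapped WT in all 6 comparisons. Cdh10 was at 0.831, 1.24 and 0.894 FPKM in DKO_CD Mb, all above the WT Mb range of 0 to 0.818 FPKM. This was the only member with all mutant libraries above WT in any of the 60 tests (log2 difference 0.59, with p = 0.0238 and adjusted p = 0.357 in the two-sided exact permutation test). The summed mesenchyme and neural crest markers were at 129 to 193 FPKM in DKO_CD Mb against 82.8 to 136 FPKM in WT Mb, and the surface ectoderm markers at 20.3 to 69.0 against 22.8 to 36.1 FPKM. Their median log2 differences were 0.62 and 0.52, beside 0.02 over all genes, and their part in the Cdh10 level was not tested. About 7.4 to 10.2 fragments stood behind each DKO_CD Mb value and 0 to 7.4 behind the WT values. In the fit without the FPKM minimum the 95% CI was 0.18 to 1.0001 and the adjusted p was 0.607 by limma. In DKO_Ex Mb, Cdh10 was at 0, 0.422 and 0.804 FPKM and in TKO_Ex Mb at 0.315 to 0.670 FPKM, both overlapping WT. The no-overlap share over all genes at 1 FPKM or more was 3.38% for DKO_CD Mb, 3% for DKO_Ex Mb, 2.23% for TKO_Ex Fb and 4.22% for DKO_CD Fb.

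**Figure D3:**
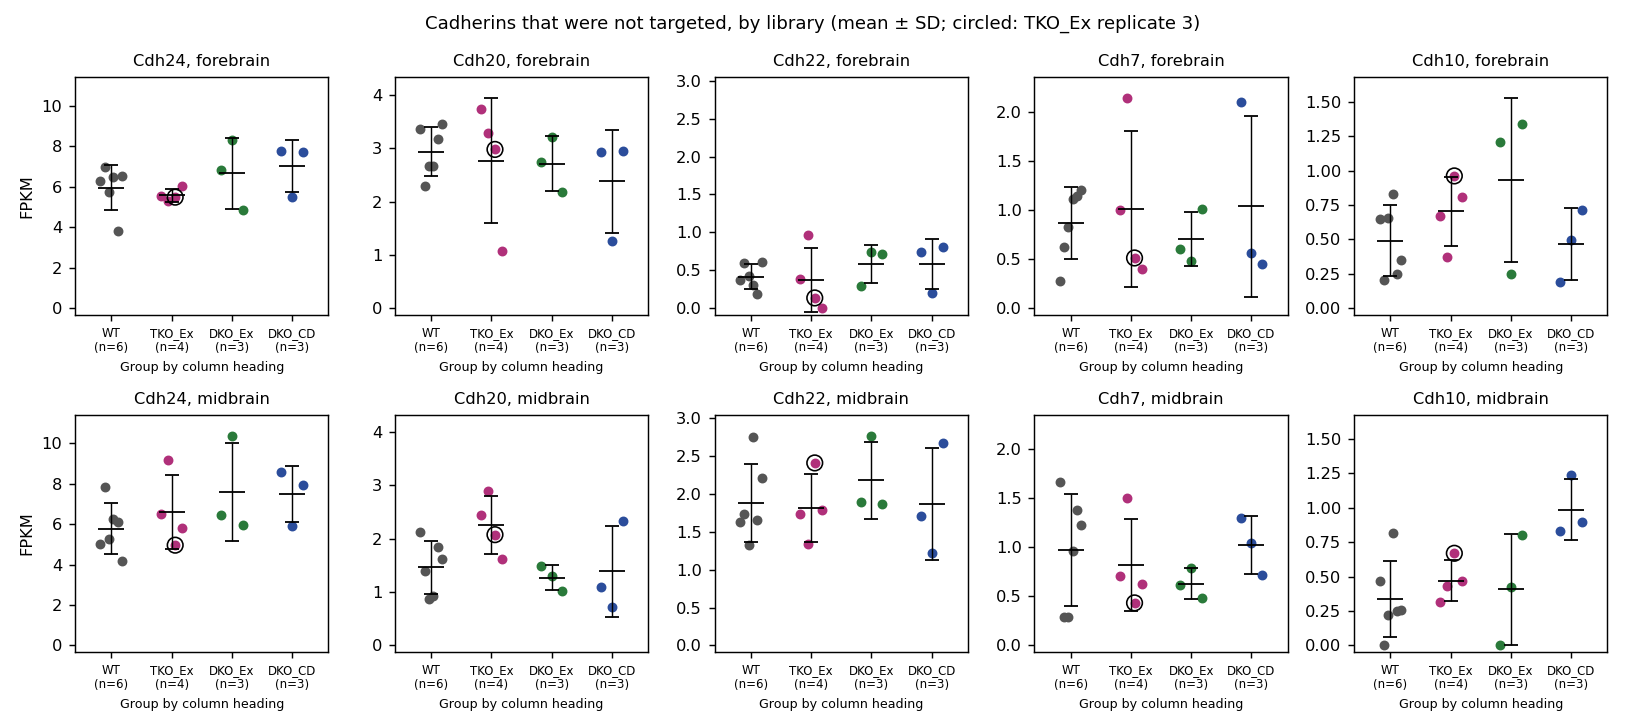
FPKM of the 5 untargeted members that were detected in most libraries (columns) in each Fb library (upper row) and Mb library (lower row) by group, with 1 point per library, bars for mean ± SD and circles around the libraries labelled TKO_Ex replicate 3. The mutant groups overlap WT in every panel except Cdh10 in the Mb, where the 3 DKO_CD libraries, at 0.831 to 1.24 FPKM, are above the WT libraries.

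**Figure D4:**
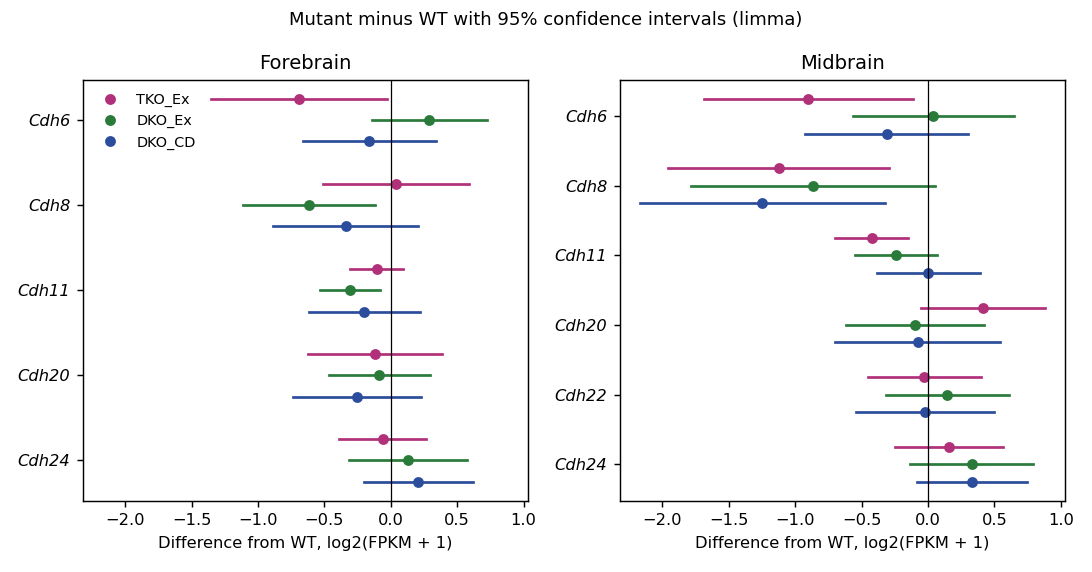
Difference between each mutant group and WT on the log2(FPKM + 1) scale (horizontal axis) for the members tested by limma, with 95% confidence intervals, for the Fb (left) and the Mb (right). Intervals for Cdh20, Cdh22 and Cdh24 all include 0, and those that lie below 0 belong to Cdh6, Cdh8 and Cdh11, with 0 of them past an adjusted p of 0.05.

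The tissue dependence of each mutant effect was tested as an interaction. For the TKO_Ex the effect in the Mb minus that in the Fb passed for 0 of 6 members by limma (0.0149% of all genes), for DKO_Ex for 0 of 6 (0%) and for DKO_CD for 0 of 6 (0.00746%). At an unadjusted p under 0.05 there were 873, 518 and 647 genes. The largest were for Cdh8, at -1.16 in TKO_Ex (SE 0.47, 95% CI -2.14 to -0.18, adjusted p = 0.737 by limma) and -0.91 in DKO_CD (SE 0.50, 95% CI -1.95 to 0.14, adjusted p = 0.990). A lower Cdh8 or Cdh11 in the Mb of TKO_Ex alone is therefore not shown to differ from the Fb.

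The summed mRNA level includes transcripts of the edited alleles, which the study found to be protein null in single knockouts. What was left besides the targeted genes is the sum of the other 7, given below. The 10 members summed to 29.6 to 31.5 FPKM in TKO_Ex Mb and 34.7 to 53.5 FPKM in WT Mb, with no overlap. The 3 targeted genes summed to 15.7 to 20.9 FPKM in TKO_Ex Mb and 24.9 to 42.3 FPKM in WT Mb, also with no overlap. Cdh11, itself without overlap here, made up 46.7 to 56.1% of the sum of 10 in TKO_Ex Mb. These sums are thus not separate from the Cdh11 result. Of single genes, 1.74% had no overlap in this comparison. The other 7 summed to 10.3 to 15.3 FPKM in TKO_Ex Mb and 7.97 to 11.7 FPKM in WT Mb, which overlap. Their share of the sum was 33.5 to 49.4% in TKO_Ex Mb and 20.96 to 32.0% in WT Mb, and in a share a lower targeted part raises the rest. In DKO_Ex Mb the other 7 summed to 10.1 to 15.7 FPKM, in DKO_CD Mb to 10.2 to 14.6 FPKM, and in the Fb to 8.42 to 12.1 FPKM in TKO_Ex, 10.1 to 13.1 FPKM in DKO_Ex and 8.04 to 13.9 FPKM in DKO_CD, against 8.65 to 12.2 FPKM in WT. These sums are given as a description without a test.

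**Figure D5:**
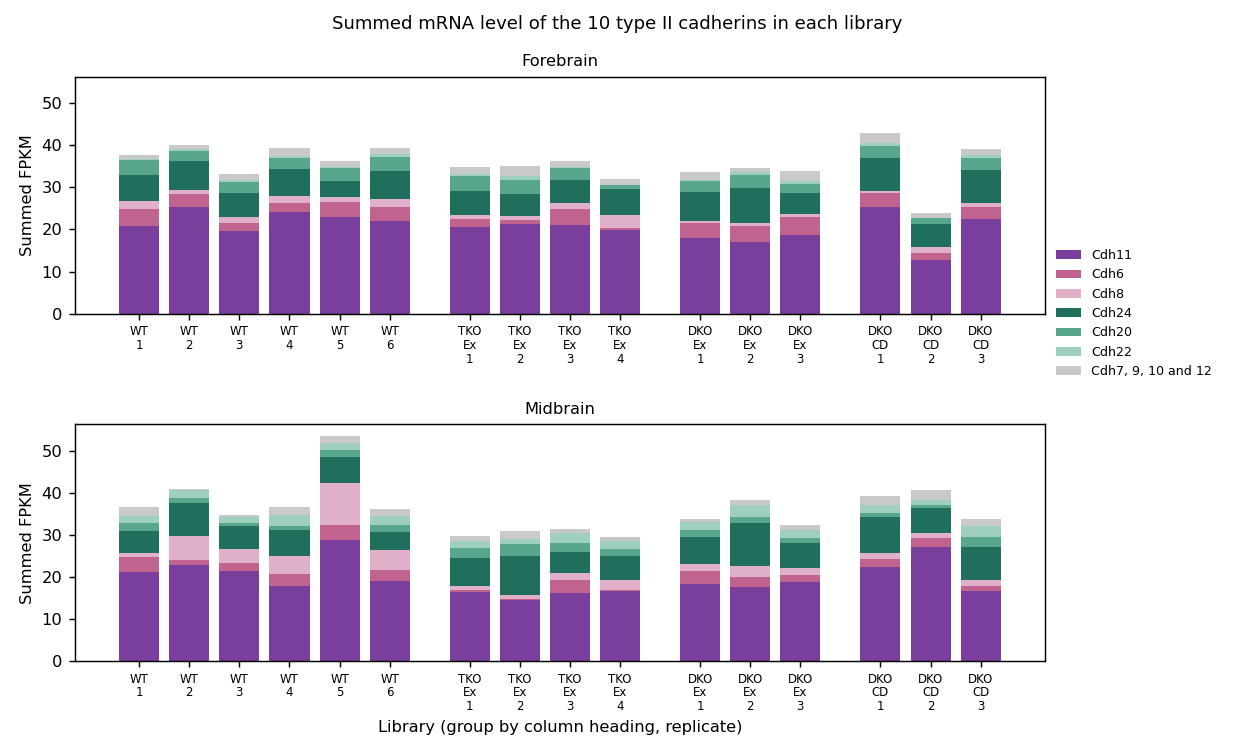
Summed FPKM of the 10 type II cadherins (vertical axis) in each Fb library (upper panel) and Mb library (lower panel), stacked by gene, with targeted genes in purple and pink and untargeted ones in green and grey. The 4 TKO_Ex Mb bars, at 29.6 to 31.5 FPKM, are the lowest Mb libraries, and WT Mb replicate 5, at 53.5 FPKM, is the highest. In the mutants the purple and pink parts include mRNA of the edited alleles.

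N-cadherin, encoded by Cdh2, is the main type I cadherin of the neural tube and gives a scale for these levels. It was at 56.7 ± 4.67 FPKM in WT Fb and 63.5 ± 5.19 FPKM in WT Mb (SD, n = 6), above the sum of all 10 type II members in every library. In TKO_Ex it was at 62.8 ± 3.49 FPKM in the Mb and 64.9 ± 10.005 FPKM in the Fb (SD, n = 4). Its log2 difference from WT in the TKO_Ex Mb was -0.01 (95% CI -0.19 to 0.17, adjusted p = 0.980 by limma) and in the TKO_Ex Fb 0.18 (95% CI -0.06 to 0.42, adjusted p = 0.674). The sum of the 10 members per Cdh2 was 0.439 to 0.526 in TKO_Ex Mb, 0.543 to 0.552 in DKO_Ex Mb and 0.560 to 0.817 in DKO_CD Mb, against 0.559 to 0.851 in WT Mb.

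The other cadherin genes and the catenins showed 0 calls in any mutant comparison with WT. Of 4 type I cadherins tested (Cdh1, Cdh2, Cdh3 and Cdh4), 0 passed, with a median log2 difference of 0.05 for TKO_Ex Mb and 0.32 for TKO_Ex Fb beside 0.02 over all genes in each. Of 12 catenins and actin partners tested, 0 passed, with medians of -0.0021 and 0.08. Of the type II and related genes outside the list, Cdh5, the endothelial cadherin, was tested and did not pass, and Cdh18 and Cdh19 were under the FPKM minimum. Cdh18 was listed at 0 in every library outside DKO_Ex Mb, where it was between 0 and 0.358 FPKM with a mean of 0.159 ± 0.183 (SD, n = 3). Between the WT tissues, by contrast, the epithelial cadherins Cdh1 and Cdh3 were lower in the Mb by log2 differences of -1.50 and -0.91 (adjusted p = 6.76e-05 and 0.00534 by limma), Lima1 was lower by -0.82 (adjusted p = 0.000205) and Ctnna2, the neural alpha-catenin, was higher by 1.002 (adjusted p = 0.00254). The surface ectoderm markers tested were also lower in the Mb, and their part in the Cdh1 and Cdh3 levels was not tested. In the mutant comparisons with WT, 0 genes of the marker lists for forebrain, midbrain and isthmus, neural progenitors, mesenchyme and neural crest, surface ectoderm, endothelium and red cells passed.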

How the data were processed

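FPKM values per gene were deposited by the authors for 32 libraries. Per the study's methods and the submitters' processing notes, reads from directional libraries were aligned to GRCm38 (mm10) with TopHat2 and FPKM was computed with Cufflinks, and the authors' own tests used HTSeq and DESeq2 on read counts, which were not used here. FPKM divides by the library total, so a level is relative to all other genes. Repeated identifiers (49) were summed, leaving 48576, of which 48132 were in GENCODE M21. Groups came from the sample titles, matched to the column headings. No libraries held identical values. The study genotyped the embryos by yolk sac PCR, which points to individual embryos, but the labels do not tie a library to an embryo. The p-values measure the spread between these libraries.

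Depth was estimated from the step of the lowest values in 769 single-transcript genes of 4000 bases or more, assuming fragments of 200 bases; 87.6 to 95.8% of low values were whole to within 0.1 fragment. Fragment numbers are approximate and cover counting error only.

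The test on log2(FPKM + 1) took the genes whose mean in the compared libraries reached 1 FPKM, and used limma 3.58.1 in R 4.3.3 (mean-variance trend, two-sided, Benjamini-Hochberg over all genes tested, threshold 0.05). Single members were also tested by two-sided exact permutation tests in scipy 1.17.1, adjusted over 60 tests. Scripts were tested on simulated data. Coding sequences were compared by global alignment in Biopython. All 10 members were named, other listed genes only where called, besides Cdh2, and for each member the 3 protein-coding genes of highest Pearson r among those averaging 5 FPKM or more in WT. The members and gene lists were chosen with earlier results of these data known. Alternatives changed the pseudocount, the filter, the scaling, the model, the block, the DKO assignment and each library.

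Same-numbered Fb and Mb libraries were not treated as pairs, because the labels do not tie a number to an embryo. The correlation of their deviations from the group means was over 0.1 in 10 of 16 pairs (range -0.0060 to 0.20). Of the 16 Fb libraries, 12 correlated best with the Mb library of their own number, which is a hint of pairing. The tests that compare tissues took the libraries as independent, and fits with the replicate number as a block are given below.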

Additional observations from a re-analysis of the deposited data

Results flagged for a closer look

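In 35 combinations of a member and a group of 4 or 6 libraries, 2 had an extreme library set apart by Dixon's test at the 95% level, and chance alone flags about 1 in 20. Cdh6 in TKO_Ex Mb was at 3.10 FPKM in the library labelled replicate 3, and the gap to the next library was 0.984 of the whole range, above the critical value for 4 libraries. The Fb library labelled TKO_Ex replicate 3 was also the highest of its group for Cdh6, at 3.74 FPKM. In the same Mb library Cdh8 was at 1.59 FPKM and Cdh11 at 16.2 FPKM, inside the range of the other TKO_Ex Mb libraries. Cdh12 in WT Mb was at 0.0704 FPKM in replicate 6 and at 0 in the other 5 libraries, which rests on about 1 fragment.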

How the results depend on the processing

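In the tissue comparison of WT, 3 members were called, and 2 to 3 over 18 alternatives. Cdh20 and Cdh22 were called in every one (adjusted p of at most 0.0453 and 0.0155). Cdh8 was lost in 13 of the 18, among them the fit without the FPKM minimum (adjusted p = 0.0728) and the replicate block (adjusted p = 0.0928), and its log2 difference ran from 0.92 to 1.49. It was kept with a pseudocount of 0.1, with median-of-ratios scaling, with all 8 groups in 1 fit and where WT Mb replicate 1 was left out. In every comparison between a mutant group and WT, between the DKO groups and for the interactions, the number of members called by limma was 0 in all alternatives. It was also 0 in the 35 alternatives of the exact tests. A lone difference could not pass the adjustment there, so that this count adds no support. Over its 15 alternatives the log2 difference of Cdh11 in TKO_Ex Mb ran from -0.47 to -0.34 and that of Cdh20 from 0.32 to 0.63. Differences from WT near 0 changed sign without being called in some alternatives, most often in DKO_CD Mb (17 times), and by the listing record the DKO_Ex and DKO_CD values exchange.

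The number of genes called over the whole table moved more than that of the members: over the alternatives it ran from 870 to 1317 between the WT tissues, 0 to 52 in TKO_Ex Mb (52 without WT Mb replicate 1), 0 to 32 in TKO_Ex Fb, 1 to 17 in DKO_Ex Mb, 2 to 14 in DKO_Ex Fb, 1 to 12 in DKO_CD Mb and 2 to 15 in DKO_CD Fb, 0 to 10 and 0 to 4 between the DKO groups in Mb and Fb, and 0 to 5, 0 to 1 and 0 to 5 for the TKO_Ex, DKO_Ex and DKO_CD interactions.

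With the replicate number as a block, the number of genes called over the whole table went from 1102 to 893 between the WT tissues and from 12 to 0 in TKO_Ex Mb. In the same fit 0 members were called in TKO_Ex Mb and 2 between the WT tissues. Of 16 Fb libraries, 12 correlated best with the Mb library of their own number, a hint that same-numbered libraries are pairs. The study collected Fb and Mb separately from dissected embryos, but the labels do not tie a number to an embryo. Between mutant and WT libraries of the same number, 0 correlations were over 0.1 and 0 were the best, so that the libraries share only a number there. At 2030000 to 3380000 fragments per library, members under 1 FPKM rest on few fragments, and a change of Cdh9 or Cdh12 was not detectable at this depth.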
